A study of Mus musculus with 6 samples.

Results

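Solute carriers (gene symbol Slc followed by a family number) are membrane proteins that move amino acids, sugars, nucleosides, vitamins, metals, ions and organic acids across the plasma membrane and across the membranes of mitochondria, lysosomes, the Golgi apparatus and vesicles. Family numbers group proteins by sequence, and members of 1 family often share a type of substrate. In macrophages they are known to supply fuel and amino acids, to export lactate, to move metals between cytosol and vesicles, and to pass bacterial peptides out of endolysosomes to cytosolic sensors. The genes described here are those whose platform gene symbol was Slc plus a digit, leaving out 11 genes (Slc2a1, Slc7a1, Slc7a2, Slc7a5, Slc7a11, Slc11a1, Slc11a2, Slc40a1, Slc3a2, Slc1a4 and Slc1a5). The rule reads gene symbols and sets no limit on a measured value. It gave 178 genes of 44 families, measured by 240 probes, of 10698 genes with 1 symbol on the array. Another 2 probes carried an Slc symbol beside a second gene and were left out.

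RAW 264.7, a mouse macrophage line derived from a virus-induced tumour, was kept for 48 h with lipopolysaccharide (LPS, 100 ng/ml) and LPS-binding protein (LBP, 100 pM), or for 48 h untreated. LPS comes from the outer membrane of Gram-negative bacteria. LBP, a serum protein, hands it to its receptors. Treated and untreated total RNA were hybridised together on 6 two-colour arrays of 16281 probes, in 3 sets that each held 1 array with treated RNA in Cy5 (red) and 1 with it in Cy3 (green). The labels do not say that the sets were separate cultures, so p-values measure the spread between 3 set means, which may be technical.

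Each value is a log2 ratio, treated over untreated, with the SD of the 3 set means (n = 3) as the error, and a call is an adjusted p under 0.05 from limma over all genes tested. The base of the logarithm, for which no source used here gives a value, was taken as 2. With a natural logarithm every fold would be larger. The direction follows the dyes in the labels, with the test RNA in Cy5. Arrays of 1 orientation correlated at 0.67 to 0.77 and arrays of opposite orientation at -0.66 to -0.41 across probes. These correlations were taken on the deposited ratios of Cy5 over Cy3, with zeros kept. There a treatment effect has opposite signs in the 2 orientations. A ratio holds no expression level, so neither the macrophage identity of the cells nor the level of any carrier could be read from these values. Exact zeros, 7.97% to 17.8% of the values of an array, were treated as missing. Of 178 genes, 153 had at least 1 probe with a value on all 6 arrays and were tested. Of the other 25, 2 had no value at all and 23 had no complete probe. Among 20 tested markers of other cell types, 4 were higher (Dcn at 2.68 ± 0.95, Lum at 1.92 ± 0.35, Cd79a at 0.63 ± 0.11 and Hba-a1 at 0.59 ± 0.28), 2 were lower (Ttr at -0.36 ± 0.25 and Alb at -0.26 ± 0.08) and the median was 0.06. Dcn and Lum mark fibroblasts, whose other tested markers did not pass (Col1a1 at 0.01, Col1a2 at 0.07 and Col3a1 at -0.21). Nor did Cd79b (-0.07) and Ms4a1 (0.02), which mark B cells as Cd79a does. Alas2 (0.08, erythroid like Hba-a1) and Apoa1 (-0.04, liver like Alb and Ttr) did not pass either. With zeros kept, Hba-a1 (limma, adjusted p = 0.0711), Alb (adjusted p = 0.0602) and Ttr (adjusted p = 0.139) did not pass. With zeros missing, 15% of all genes tested were called higher and 12.8% lower. The part of other cell types in the results below was not tested.

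Treated cells had more Slc15a3, the endolysosomal carrier of histidine and peptides, by 2.26 ± 0.11 (4.78-fold), more of the serotonin transporter Slc6a4 by 1.73 ± 0.28 (3.32-fold), and more of the copper transporter family gene Slc31a2 by 1.09 ± 0.02 (2.12-fold). The largest decreases were those of the nucleoside transporter Slc29a1, which fell by 0.91 ± 0.0047, the lactate and pyruvate carrier Slc16a1, by 0.71 ± 0.08, and the reduced folate carrier Slc19a1, by 0.61 ± 0.15. Of the 153 tested genes, 20 rose and 17 fell (limma, adjusted p under 0.05), and 116 did not pass. Without set 2, only 9 fell. The shares called, 24.2% in either direction, 13.1% higher and 11.1% lower, stood beside 27.8%, 15% and 12.8% of the 9160 genes tested on the array, so the Slc genes as a whole were called about as often as other genes. Only 3 of them (1.96%) changed at least 2-fold with a call, all upward, against 3.44% of all genes. The median ratio was 0.01 with quartiles of -0.14 and 0.17, and over all genes it was -0.01 with quartiles of -0.16 and 0.15.

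**Figure D1:**
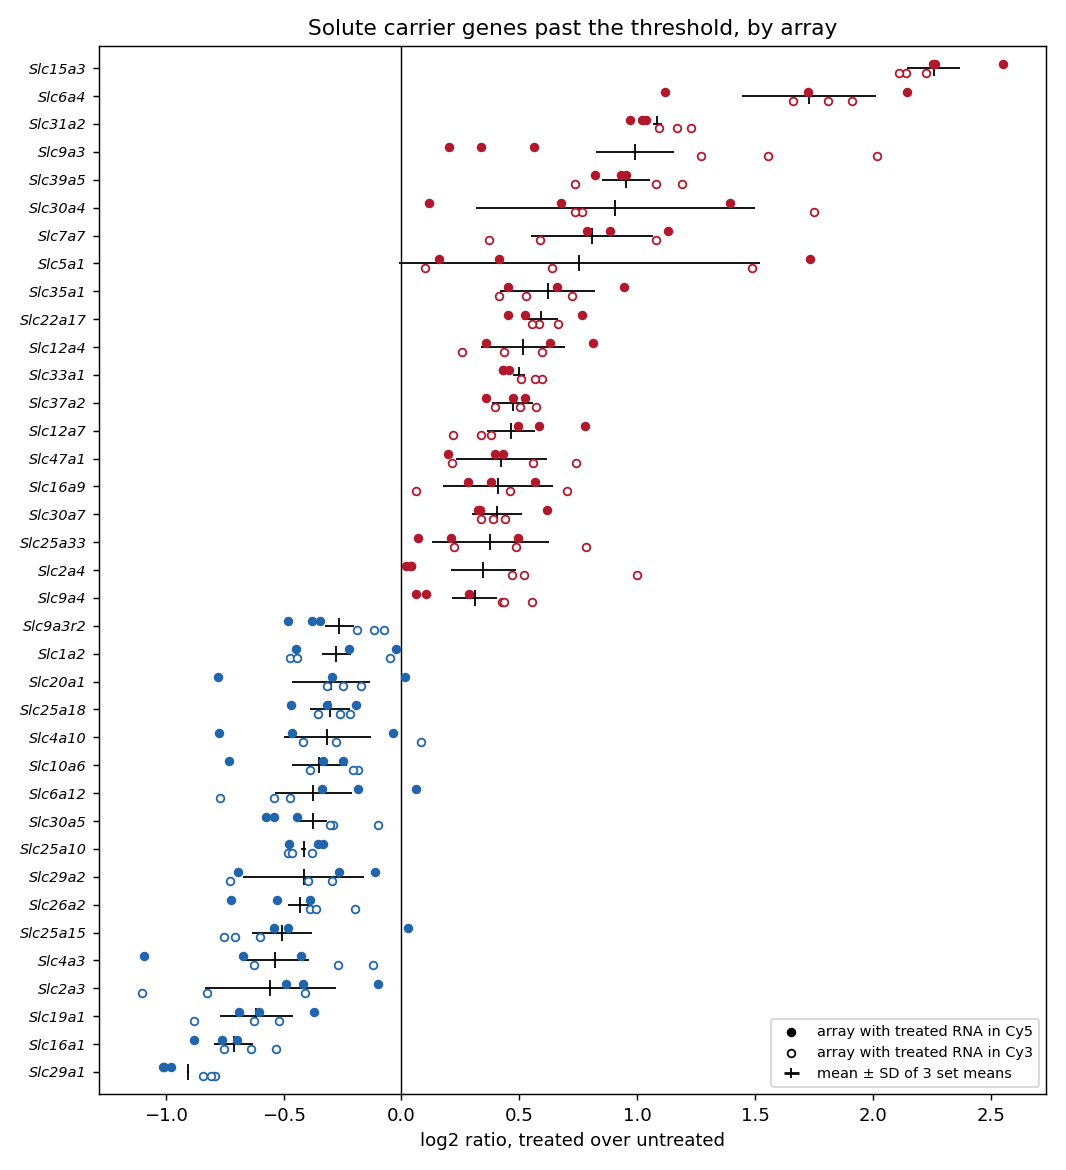
Log2 ratio of treated over untreated cells (x axis) on each of the 6 arrays for the 37 solute carrier genes past the threshold (y axis), filled for treated RNA in Cy5 and open for treated RNA in Cy3, with the mean ± SD of the 3 set means in black; red genes were higher and blue genes lower. Slc15a3 lies above 2 on every array, and most other genes lie within 1 log2 unit of 0.

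All 6 arrays read higher in treated cells for 28 of the 153 genes (18.3%) and lower for 24 (15.7%), against 16.4% and 14.5% of all genes. Of the 37 called genes, 33 had 1 sign on all 6 arrays. The exceptions were Slc25a15, Slc6a12, Slc20a1 and Slc4a10, which each had 1 array of the opposite sign. No tested Slc gene passed for a dye effect (0 of 153, limma, against 0.142% of all genes), while 37 (24.2%) had an unadjusted dye p under 0.05, against 25.5% of all genes. In 49 (32%) the dye effect was larger than the treatment effect, against 34.4% of all genes. In 10 (6.54%) the arrays of 1 orientation all had the opposite sign to those of the other, against 6.64% of all genes. In 13 of the 37 called genes the 3 values of 1 orientation did not overlap the 3 of the other, Slc9a3 among them. That was 35.1% of the called Slc genes, against 26.2% of the 2542 called genes of the array.

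**Figure D2:**
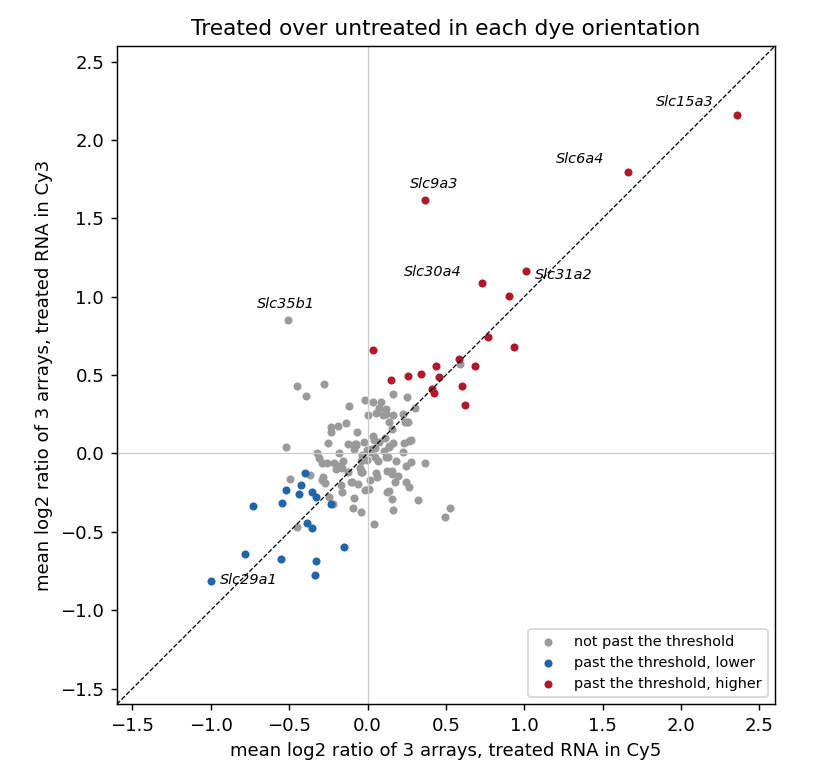
Mean log2 ratio with treated RNA in Cy3 (y axis, 3 arrays) against the mean with it in Cy5 (x axis, 3 arrays) for the 153 tested solute carrier genes, coloured by call; the dashed line marks equal values. Slc15a3, Slc6a4 and Slc31a2 lie near the line, Slc9a3 lies above it, and Slc35b1 has opposite signs in the 2 orientations.

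The windows around the start sites of 4 called genes are shown because each holds the 6-base E-box CACGTG, a palindrome bound by basic helix-loop-helix factors such as Myc, USF and TFEB, and because 2 of the genes rose and 2 fell. Each runs 5′ to 3′ on the gene's strand from 250 bases before to 50 bases after a start site in RefSeq (GRCm38.p6), with matches in capitals. Slc31a2 lies at chr4:62286179-62286478 on the + strand and has the E-box at its start site. Slc9a3 lies at chr13:74121163-74121462 on the + strand, with the E-box 87 bases and a match to the NF-kB pattern 66 bases before the start. Slc29a1 lies at chr17:45595197-45595496 on the - strand, in 1 of 8 windows listed for the gene, with the E-box 75 bases before the start. A match to the NF-kB pattern lies in another window of Slc29a1, not printed. Slc16a1 lies at chr3:104638414-104638713 on the + strand, with the E-box 200 bases before the start.
Slc31a2: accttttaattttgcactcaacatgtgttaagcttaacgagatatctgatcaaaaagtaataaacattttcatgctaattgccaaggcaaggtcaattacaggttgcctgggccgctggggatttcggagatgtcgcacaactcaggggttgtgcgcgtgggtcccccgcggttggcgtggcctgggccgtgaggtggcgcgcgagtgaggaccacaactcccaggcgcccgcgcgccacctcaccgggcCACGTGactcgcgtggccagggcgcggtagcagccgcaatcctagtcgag
Slc9a3: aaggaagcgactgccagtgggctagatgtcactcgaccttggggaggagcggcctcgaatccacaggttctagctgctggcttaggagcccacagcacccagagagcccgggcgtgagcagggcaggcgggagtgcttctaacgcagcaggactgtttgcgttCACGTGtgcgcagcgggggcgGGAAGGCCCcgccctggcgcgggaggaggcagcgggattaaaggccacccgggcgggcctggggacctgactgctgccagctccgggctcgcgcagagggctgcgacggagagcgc
Slc29a1: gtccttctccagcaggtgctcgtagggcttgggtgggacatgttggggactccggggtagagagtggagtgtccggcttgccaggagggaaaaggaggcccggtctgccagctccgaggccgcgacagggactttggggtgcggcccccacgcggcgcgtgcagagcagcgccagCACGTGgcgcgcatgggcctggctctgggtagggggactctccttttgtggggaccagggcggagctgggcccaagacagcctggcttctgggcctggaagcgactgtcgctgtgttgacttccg
Slc16a1: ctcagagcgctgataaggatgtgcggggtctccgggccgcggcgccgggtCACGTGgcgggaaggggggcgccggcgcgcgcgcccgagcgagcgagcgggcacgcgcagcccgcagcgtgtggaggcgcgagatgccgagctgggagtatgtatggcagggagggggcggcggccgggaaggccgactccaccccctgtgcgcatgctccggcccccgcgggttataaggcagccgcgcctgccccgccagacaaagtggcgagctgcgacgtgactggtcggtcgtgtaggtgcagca

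Of the 37 called genes, 31 had a window in this table. The E-box was in a window of 6 of 16 genes that rose (37.5%) and 5 of 15 that fell (33.3%), of 15 of 89 tested Slc genes that were not called (16.9%), of 800 of 7301 tested genes of any name (11.0%) and in 7.15% of all 32851 windows. The other patterns searched on both strands were GAAANNGAA, the core of the interferon-stimulated response element (0 of 16 and 2 of 15, and 8.77% of tested genes), GGGNNTTCC, an NF-kB pattern (2 of 16 and 2 of 15, and 8.16% of tested genes), and TGATGNAA, a C/EBP-ATF pattern (1 of 16 and 0 of 15, and 3.07% of tested genes). They were in 8.56%, 5.82% and 3.97% of all windows. None of these letters overlapped another match in the windows printed. The 4 patterns were chosen after the expression values had been seen, genes have unequal numbers of windows, and a match is a description of letters, not a binding site. Slc15a3, the gene with the largest increase, was not in the table.

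Carriers of peptides, phosphate and vesicle contents held the largest single change. Of 9 tested genes, 2 rose and 1 fell (33.3% called, against 27.8% of all genes tested), with a median of -0.09. Slc15a3 read 2.26, 2.55 and 2.26 in sets 1 to 3 where treated RNA carried Cy5, and 2.14, 2.22 and 2.11 where it carried Cy3, an order kept below for values "in Cy5" and "in Cy3". No array was below 2, and both probes rose, by 2.16 and 2.35 (adjusted p = 1.6e-06 for the gene). Slc33a1, which carries acetyl-CoA into the endoplasmic reticulum, read 0.43, 0.43 and 0.45 in Cy5 and 0.60, 0.51 and 0.57 in Cy3, a mean of 0.50 ± 0.02 (adjusted p = 0.00273). Its other probe, incomplete and not tested, read -2.02 and -2.13 in Cy5 and 2.10 and 2.28 in Cy3. The phosphate carrier Slc20a1 fell by 0.30 ± 0.16 (adjusted p = 0.0447), a call that was lost without set 1 (adjusted p = 0.0863) or set 2 (adjusted p = 0.203), with the set as a replicate block (adjusted p = 0.119) and with zeros kept (adjusted p = 0.105).

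Among the amino acid and neurotransmitter carriers, 2 of 23 tested genes rose and 2 fell, with a median of 0.01. This was 17.4% called, against 27.8% of all genes tested. Slc6a4, which takes serotonin back into cells and is best known from neurons and platelets, read 1.73, 1.12 and 2.14 in Cy5 and 1.66, 1.81 and 1.91 in Cy3. Every array was above 1, and its 2 probes gave 1.74 and 1.72 (adjusted p = 2.75e-05 for the gene). Slc7a7, the light subunit of a transporter that exchanges cationic for neutral amino acids, read 0.79, 1.13 and 0.88 in Cy5 and 0.59, 1.08 and 0.37 in Cy3, a rise of 0.81 ± 0.26 (1.75-fold, adjusted p = 0.00125). Slc6a12, the betaine and GABA transporter, fell by 0.37 ± 0.16 (adjusted p = 0.0195), and the glutamate transporter Slc1a2 by 0.28 ± 0.06 (adjusted p = 0.0371). The value of Slc1a2 came from 1 probe at -0.76 and 2 probes at -0.03 and -0.04. A second probe of Slc6a12 was listed at 0 on every array. The call of Slc6a12 was lost without set 2 (adjusted p = 0.0977) and with zeros kept (adjusted p = 0.107), and that of Slc1a2 without set 1, 2 or 3 (adjusted p = 0.162, 0.0917 and 0.0906) and with the set as a replicate block (adjusted p = 0.106). All 4 tested Slc38 genes, which carry neutral amino acids such as glutamine, lay between -0.12 and 0.02 and none passed (limma, 0 of 4 also at an unadjusted p under 0.05). Here, and for the Slc27 and Slco genes below, the share of all genes at that unadjusted limit was not counted.

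Metal carriers had the highest median of the classes with over 1 tested gene, 0.18. Of 16 tested genes, 4 rose and 1 fell (31.3% called, against 27.8% of all genes tested). Slc31a2, a copper transporter of intracellular membranes, read 1.02, 1.04 and 0.97 in Cy5 and 1.17, 1.09 and 1.23 in Cy3 (adjusted p = 4.74e-05). These 6 values spanned less than 0.3 log2 units. The zinc carriers split. Slc39a5, of the family that brings zinc into the cytosol, rose by 0.95 ± 0.10 (1.94-fold, adjusted p = 1.37e-04), but 1 probe gave 1.72 (adjusted p = 1.25e-05) and the other 0.19 (adjusted p = 0.143). Slc30a4, of the family that moves zinc out of the cytosol into vesicles, rose by 0.91 ± 0.59 (adjusted p = 0.00998), with probes at 1.09 and 0.73 and set means of 1.57, 0.44 and 0.71, and did not pass with zeros kept (adjusted p = 0.118). Slc30a7, which loads zinc into the Golgi, rose by 0.41 ± 0.11 (adjusted p = 0.0095, and 0.052 without set 3), while Slc30a5, a zinc carrier of the early secretory pathway, fell by 0.37 ± 0.06 over probes at -0.44 and -0.31 (adjusted p = 0.0108, and 0.0534 without set 3). Slc39a8, a zinc importer known as a target of inflammatory signals, was at 0.01 ± 0.18 and did not pass.

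The largest decreases lay among carriers of organic acids, vitamins, nucleosides and drugs. Of 30 tested genes, 3 rose and 5 fell (26.7% called, against 27.8% of all genes tested), with a median of -0.03. Slc29a1, the main equilibrative nucleoside transporter of the plasma membrane, read -0.98, -1.01 and -1.01 in Cy5 and -0.84, -0.79 and -0.81 in Cy3 (adjusted p = 1.26e-04). All 6 arrays were lower in treated cells, with the orientations apart by about 0.2 and the set means nearly equal. Its relative Slc29a2 fell by 0.42 ± 0.26 (adjusted p = 0.0248), a call lost without set 2 (adjusted p = 0.111) and with zeros kept (adjusted p = 0.115), and the lysosomal Slc29a3 was at -0.33 ± 0.32 without passing (adjusted p = 0.0806). The concentrative nucleoside transporter Slc28a2, which takes up purine nucleosides with sodium, had 2 incomplete probes that disagreed. Its fuller probe was missing on the Cy5 array of set 1 and read 1.14 and 2.66 in sets 2 and 3 in Cy5 and 0.99, 0.96 and 2.47 in Cy3. The other probe had a single value, -1.64 in Cy5 of set 2. The gene could not be tested in the main analysis. When a probe needed only 2 complete sets, Slc28a2 was at 1.81 (limma, SE 0.29, 3.50-fold, adjusted p = 0.00316). That value rests on set means of 1.05 and 2.57. The SE is moderated by limma over all genes and does not show how far apart they lie. Slc28a2 was the 1 gene called of the 18 Slc genes added. The share called among all genes added by that fit was not counted. That fit called 2566 of 10252 genes (25%), against 2542 of 9160 (27.8%) in the main analysis. These totals also hold calls that changed among genes tested in both fits, such as Slc4a3, which lost its call. With zeros kept and both probes averaged, Slc28a2 did not pass (adjusted p = 0.286).

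In the monocarboxylate family, Slc16a1, which carries lactate, pyruvate and ketone bodies, read -0.76, -0.88 and -0.70 in Cy5 and -0.75, -0.64 and -0.53 in Cy3 (adjusted p = 5.65e-04). Every array was lower. Slc16a3, the lactate exporter of glycolytic cells, was at -0.16 ± 0.28 with both signs among its arrays and did not pass. Slc16a9, a carrier of carnitine, rose by 0.41 ± 0.23 (adjusted p = 0.0219), with probes at 0.63 and 0.19, and lost its call without set 3 (adjusted p = 0.109) and with zeros kept (adjusted p = 0.101). Slc19a1, which imports reduced folates and cyclic dinucleotides, read -0.69, -0.61 and -0.37 in Cy5 and -0.63, -0.88 and -0.52 in Cy3 (adjusted p = 0.00192), and the thiamine carrier Slc19a2 was at 0.30 ± 0.26 without passing. Slc22a17, a receptor for the siderophore-binding protein lipocalin-2, rose by 0.59 ± 0.07 (1.51-fold, adjusted p = 0.00141). The drug extruder Slc47a1 rose by 0.42 ± 0.19 (adjusted p = 0.0143, 0.0708 without set 2 and 0.0721 with zeros kept). Slc10a6, a carrier of sulphated steroids, fell by 0.35 ± 0.12 (adjusted p = 0.0193, 0.0539 without set 1, 0.0917 without set 2 and 0.0527 with zeros kept).

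**Figure D3:**
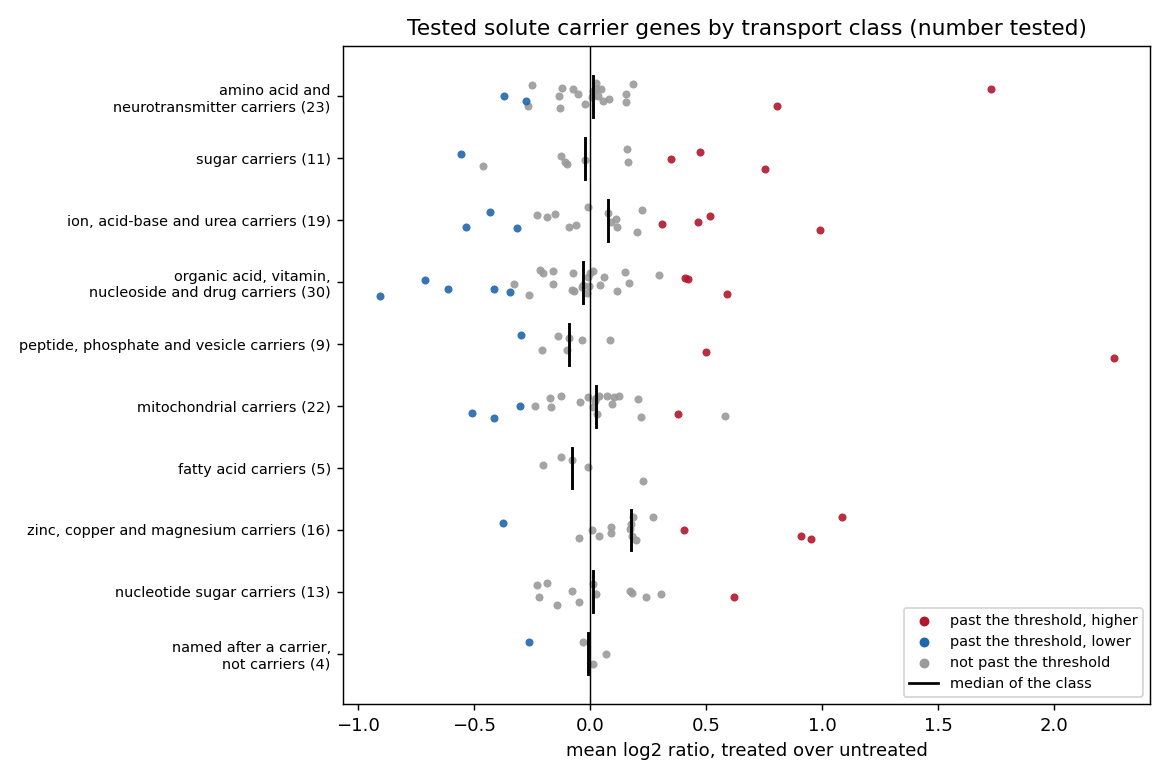
Mean log2 ratio of treated over untreated cells (x axis) for 152 of the 153 tested solute carrier genes by transport class (y axis, number tested in brackets; the unclassed Slc66a2 is left out), red where higher, blue where lower and grey where not past the threshold, with the class median as a black bar. Class medians lie between -0.09 and 0.18, and Slc15a3 and Slc6a4 lie farthest to the right.

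Of 11 tested sugar carriers, 3 rose and 1 fell (36.4% called, against 27.8% of all genes tested), with a median of -0.02. Slc2a3, a high-affinity glucose transporter, read -0.10, -0.42 and -0.49 in Cy5 and -0.41, -0.82 and -1.10 in Cy3, a fall of 0.56 ± 0.28 with probes at -0.63 and -0.48 (adjusted p = 0.00859, and 0.0779 with zeros kept). Slc37a2, a sugar phosphate exchanger of the endoplasmic reticulum that is abundant in macrophages, rose by 0.47 ± 0.09 (adjusted p = 0.0044). Slc2a4, the insulin-responsive glucose transporter, was called at 0.35 ± 0.14 (adjusted p = 0.0221), with 0.04, 0.04 and 0.02 in Cy5 and 0.47, 0.52 and 1.00 in Cy3, and lost the call without set 3 (adjusted p = 0.119) and with zeros kept (adjusted p = 0.0653). Its size therefore came from 1 dye orientation. The sodium-glucose cotransporter Slc5a1 was called at 0.76 ± 0.77 (adjusted p = 0.0481), with set means of 0.13, 0.53 and 1.61. That call was lost without set 2 (adjusted p = 0.0704) or set 3 (adjusted p = 0.106), with arrays scaled to equal spread (adjusted p = 0.0504), with robust eBayes (adjusted p = 0.105) and with zeros kept (adjusted p = 0.234).

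Ion, acid-base and urea carriers had 4 of 19 tested genes higher and 3 lower (36.8% called, against 27.8% of all genes tested). Their median was 0.08. Slc9a3, a sodium-proton exchanger known from gut and kidney epithelium, rose by 0.99 ± 0.16 (1.99-fold, adjusted p = 1.80e-04). It read 0.56, 0.20 and 0.34 in Cy5 but 1.55, 2.02 and 1.27 in Cy3, so the direction was shared by all arrays and the size was not. The potassium-chloride cotransporters Slc12a4 and Slc12a7, which shed salt when cells swell, rose by 0.52 ± 0.18 (adjusted p = 0.00551) and 0.47 ± 0.10 (adjusted p = 0.00506). The sulphate transporter Slc26a2 fell by 0.43 ± 0.05 (adjusted p = 0.00574), with probes at -0.57 and -0.29 (adjusted p = 0.00391 and 0.0522). The anion exchanger Slc4a3 fell by 0.53 ± 0.14 on its complete probe (adjusted p = 0.00353), while its 2 incomplete probes averaged -0.11 and 0.05 over 5 arrays each, and with those included it did not pass (adjusted p = 0.0995, and 0.154 with zeros kept). The sodium-proton exchanger Slc9a4 was called at 0.31 ± 0.09 and the bicarbonate carrier Slc4a10 at -0.31 ± 0.18. Slc9a4 lost its call without set 1, 2 or 3 (adjusted p = 0.136, 0.0657 and 0.0593) and with zeros kept (adjusted p = 0.0515). Slc4a10 lost it without set 2 or 3 (adjusted p = 0.0739 and 0.221), with zeros kept (adjusted p = 0.159) and with the set as a replicate block (adjusted p = 0.128).

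The 22 tested mitochondrial carriers of family Slc25 had 1 gene higher and 3 lower (18.2% called, against 27.8% of all genes tested). Their median was 0.02. Slc25a10, which exchanges malate or succinate for phosphate, read -0.33, -0.48 and -0.35 in Cy5 and -0.48, -0.38 and -0.47 in Cy3, a fall of 0.41 ± 0.01 (adjusted p = 0.0064). The ornithine carrier of the urea cycle, Slc25a15, read -0.48, -0.54 and 0.03 in Cy5 and -0.71, -0.60 and -0.75 in Cy3, a fall of 0.51 ± 0.13 (adjusted p = 0.004). Slc25a18, a glutamate carrier, fell by 0.30 ± 0.08 (adjusted p = 0.0291, 0.103 without set 2 and 0.122 without set 3). The pyrimidine nucleotide carrier Slc25a33 rose by 0.38 ± 0.25 (adjusted p = 0.0334, 0.161 without set 1, 0.0813 without set 2 and 0.127 with zeros kept). The citrate carrier Slc25a1 was at 0.01 ± 0.16, and the adenine nucleotide translocators Slc25a4 and Slc25a5 at 0.12 ± 0.12 and -0.17 ± 0.21, all without passing. Slc25a23, a calcium-regulated ATP-magnesium and phosphate carrier, had the highest mean of the family, 0.58 ± 0.78, and did not pass (adjusted p = 0.116).

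Nucleotide sugar carriers of family Slc35 supply the Golgi and endoplasmic reticulum with activated sugars for glycosylation. The class was set by family number, not by the known substrate of each member. Of 13 tested genes, 1 rose and 0 fell (7.69% called), with a median of 0.01. Slc35a1, which carries CMP-sialic acid into the Golgi, read 0.66, 0.45 and 0.95 in Cy5 and 0.53, 0.41 and 0.72 in Cy3, a rise of 0.62 ± 0.20 (1.54-fold, adjusted p = 0.00275). The lowest member was Slc35d3 at -0.23 ± 0.08, which did not pass. None of the 5 fatty acid transport proteins of family Slc27 passed (limma, with 1 of them at an unadjusted p under 0.05). Over all genes tested, 27.8% passed. The 5 genes ranged from -0.20 ± 0.20 (Slc27a2) to 0.23 ± 0.09 (Slc27a4).

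The rule also took in 4 genes that carry an Slc symbol but encode no carrier. Slc9a3r2, a scaffold protein that anchors exchangers to the cytoskeleton, fell by 0.26 ± 0.06 (adjusted p = 0.0437) over 3 probes at -0.39, -0.27 and -0.13, and lost its call without set 1, 2 or 3 (adjusted p = 0.102, 0.164 and 0.109). The pseudogene Slc39a1-ps was at 0.07 ± 0.12 and did not pass. The unclassed Slc66a2 was at 0.06 ± 0.25.

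In 4 genes the 3 set means spread over more than 1 log2 unit. Slc25a23 read 1.45 and 1.52 on the 2 arrays of set 1 and 0.09 to 0.17 on the other 4 arrays. Slc5a1 read 1.73 and 1.49 in set 3 and 0.10 to 0.64 elsewhere. The myo-inositol transporter Slc5a3, at -0.46 ± 0.67 without passing, read 0.33 and 0.27 in set 1, -0.75 and -0.76 in set 2 and -0.94 and -0.93 in set 3. Slc30a4 read 1.39 and 1.75 in set 1 and 0.12 to 0.77 elsewhere. Both dye orientations of a set gave nearly the same value in the first 3 of these genes (largest gap within a set 0.25, 0.08 and 0.06 for Slc5a1, Slc25a23 and Slc5a3), against 0.65 for Slc30a4. These genes were picked for their spread, so this is a description.

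**Figure D4:**
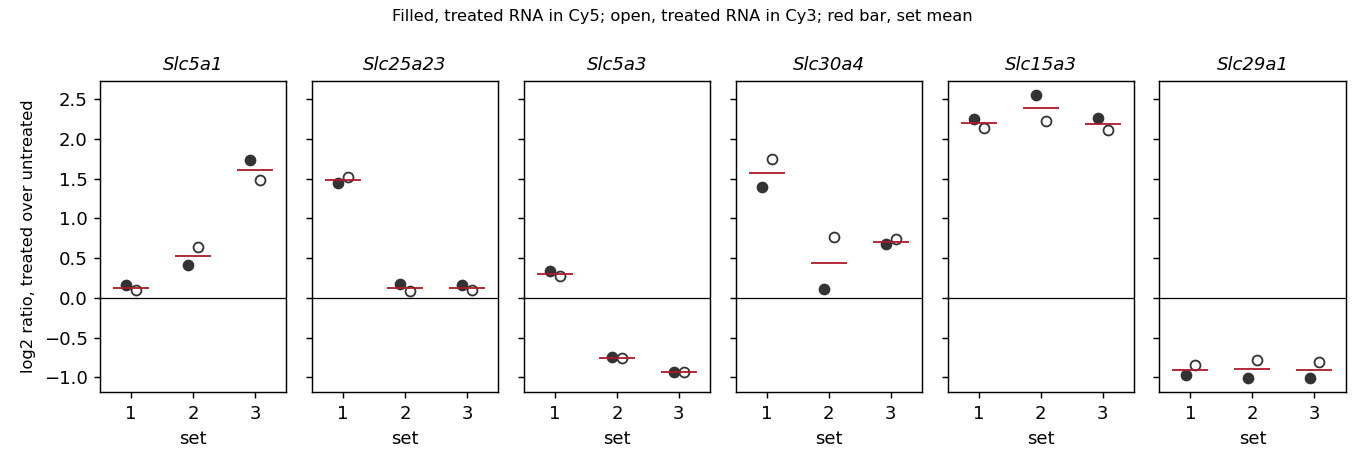
Log2 ratio of treated over untreated cells (y axis, shared) on the 2 arrays of each set (x axis) for the 4 solute carrier genes with the widest spread of set means and, for comparison, Slc15a3 and Slc29a1, filled for treated RNA in Cy5 and open for Cy3, with the set mean as a red bar. Slc25a23 stands out in set 1 and Slc5a1 in set 3 on both arrays, whereas the set means of Slc29a1 differ by under 0.02.

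The membrane carriers named Slco and Mfsd and the partners of carriers were read in the same way. Over all genes tested, 27.8% were called. None of 6 tested Slco genes, which carry organic anions, passed (limma, with 0 at an unadjusted p under 0.05). Of 7 Mfsd genes 1 fell, Mfsd14a by 0.51 ± 0.03 (adjusted p = 0.00241). Of 11 tested partners, 0 rose and 2 fell. These were Emb, a chaperone of monocarboxylate carriers, by 0.47 ± 0.19 (adjusted p = 0.00934, and 0.0611 with zeros kept) and the scaffold Pdzk1 by 0.29 ± 0.15 (adjusted p = 0.0479, and 0.102 with zeros kept). Bsg, the usual chaperone of Slc16a1, was at 0.00 ± 0.44 without passing.

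With exact zeros kept as values, 24 of 178 Slc genes were called (13.5%), against 14.7% of 10698 genes, and 23 of them were among the 37. Across 9 alternatives that refit all genes, 18 of the 37 calls passed in the same direction every time: Slc15a3, Slc6a4, Slc31a2, Slc9a3, Slc39a5, Slc7a7, Slc35a1, Slc22a17, Slc12a4, Slc33a1, Slc37a2 and Slc12a7 upward, and Slc29a1, Slc16a1, Slc19a1, Slc25a15, Slc26a2 and Slc25a10 downward. The fit of each probe on its own was not among the 9. In that fit a probe of Slc39a5 (limma, adjusted p = 0.143) and a probe of Slc26a2 (adjusted p = 0.0522) did not pass. The share of all called genes that passed every time was not counted.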

How the data were processed

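The authors deposited 1 log ratio of Cy5 over Cy3 per probe and array, of unstated base. These deposited values were read as log2. Its background correction and dye normalization are not stated in any source used here. Every array had a deposited median of 0. Probes were named by the platform annotation. The members, classes and lists were chosen with earlier results of these data known.

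The sign was turned on the 3 arrays with treated RNA in Cy3. Exact zeros were set to missing, probes complete on all 6 arrays with 1 symbol (11059) were averaged per gene, and the 2 arrays of each set were averaged. The 3 set means of 9160 genes were tested against 0 with limma 3.58.1 (R 4.3.3, lmFit and eBayes, two-sided, Benjamini-Hochberg). The dye effect was tested likewise on unturned ratios. The script was tested on simulated data. Named genes were the 15 largest increases and decreases past the threshold with 1 sign on all arrays, and the highest and lowest member of each class. Others were named after their values were seen. All columns were mapped to a sample (0 left over). The number of arrays limits the precision.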

Additional observations from a re-analysis of the deposited data

Results flagged for a closer look

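In 10 tested Slc genes, all 3 arrays with treated RNA in Cy5 had the opposite sign to all 3 with it in Cy3. This was 6.54% of the tested Slc genes, and 6.64% of all tested genes had such a pattern. The ratio in Cy5 minus that in Cy3 was -1.36 for Slc35b1, -0.759 for Slc44a4, -0.718 for Slc34a1, -0.406 for Slc4a1ap and -0.369 for Slc30a3, and it was 0.897 for Slc28a3, 0.874 for Slc9b1, 0.425 for Slc7a3, 0.371 for Slc26a3 and 0.266 for Slc25a26. None of these genes passed for the treatment, and none passed for the dye effect (limma, adjusted p of 0.0895 for Slc35b1, the lowest of the 10).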

How the results depend on the processing

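The precision is limited by 3 set means and by values listed at 0. With zeros kept as values, 24 Slc genes were called instead of 37, 10 of them lower instead of 17, and 1576 genes overall instead of 2542. By class the calls went from 7 to 4 for ion carriers, 8 to 4 for organic acid, vitamin, nucleoside and drug carriers, 4 to 1 for sugar carriers, 1 to 2 for nucleotide sugar carriers and 3 to 1 for the partners, Slco and Mfsd genes. Without 1 set, 26 to 34 Slc genes were called, 15 to 19 higher and 9 to 15 lower, and 1833 to 2013 genes overall. Without set 2, 9 lower Slc genes were called. Slc66a2, never called, ranged from -0.081 (without set 2) to 0.151 (without set 1) with 1 set left out. The other settings moved the counts of Slc genes called, in all, higher or lower, by less than 1.5 times. Class and partner counts were recomputed with zeros kept only. The labels do not say that a set number marks a pair. Same-set deviations correlated at 0.54, 0.08 and 0.18, each above the best with another set (-0.22, 0.01 and 0.14). Only set 1 stood well apart. Deviations were taken from the mean of 3 arrays, which ties these correlations to each other, so they do not settle the pairing. With the set as a replicate block over 6 arrays 35 Slc genes were called of 2491 in all, and with no block 52 of 3183. Each probe on its own gave 37 genes with a called probe.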

Other observations

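In 7 of the 58 incomplete Slc probes, an array with treated RNA in Cy5 read below -2, which no complete Slc probe did. The probes belonged to Slc1a6, Slc26a3, Slc33a1, Slc4a1, Slc6a2, Slc6a6 and Slc7a9. They had 17 missing values on the 3 arrays with treated RNA in Cy3 and 9 on the 3 with it in Cy5. The probes were picked for a low Cy5 value, so each had at least 1 Cy5 value and none needed a Cy3 value. The 2 counts can therefore not be compared. How often such probes occur over the whole array was not counted. Where a Cy3 array had a value, it had the opposite sign after turning: the Slc1a6 probe read -2.89, -2.61 and -2.95 in Cy5 and 2.79 in Cy3, and the Slc4a1 probe read -2.58 and 2.23. The taurine transporter Slc6a6 had no other probe, and its values of -2.16 and -2.42 came from the Cy5 arrays of sets 1 and 2 alone, so no treatment effect could be read for it.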
